A study of Mus musculus with 9 samples.

Results

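The clustered protocadherin genes lie in 3 neighbouring arrays on mouse chromosome 18, Pcdha, Pcdhb and Pcdhg. Their chromatin accessibility was read here in mouse embryonic stem cells (mESCs), from female lines, as they differentiated. Members were the windows of the genome-wide table that overlap the body, or the 1000 bases upstream, of a gene whose GENCODE M21 symbol begins with Pcdha, Pcdhb or Pcdhg. This gave 205 of the 829493 windows that hold a value in every library, for 58 genes. Pcdha contributed 14 genes and 78 windows, Pcdhb 22 genes and 55 windows, and Pcdhg 22 genes and 72 windows. The 5′ end of each gene fell in a window of its own, so that 58 windows held a start site and 147 did not.

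The assay was NOMe-seq, in which a GpC methyltransferase marks cytosines that nucleosomes leave exposed and bisulfite sequencing reads the marks. More open chromatin thus gives a higher percent of methylated GpC sites. All cells came from F1 mESC lines of FVB/NJ dams and CAST/EiJ sires, grown in 2i medium and weaned into DME HiHi medium to differentiate. The 9 libraries were cells at day 0, cells carrying the control hairpin Nons at days 4, 5, 6 and 7, and cells with a knockdown of Smarcc1, a core subunit of the BAF nucleosome remodelling complex, on the same days. The hairpins were introduced on day 2 and selected with puromycin from day 3. The titles give 1 hairpin label for all 4 knockdown libraries, so an effect of that hairpin and an effect of Smarcc1 loss cannot be told apart. Below, the 4 values of the Nons course or the Smarcc1 course stand in the order of days 4, 5, 6 and 7. Each condition and day had 1 library, so no difference between a pair of libraries has a replicate check. Neither the depletion of Smarcc1 nor the identity of the cells could be checked, since the table holds no RNA or protein level.

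Clustered protocadherins are cadherin-like proteins of the cell surface that neurons use to tell their own processes from those of other neurons. In Pcdha and Pcdhg each variable exon has its own promoter and is spliced to constant exons shared by the whole array, whereas each Pcdhb gene is a single coding exon. Neurons choose most variable promoters at random, but the C-type isoforms at the end of Pcdha and Pcdhg are used more broadly. Promoter choice depends on CTCF and cohesin, which join a chosen promoter to distant enhancers, and most variable promoters carry a conserved element with the core CGCT. In cells outside the nervous system the arrays are largely silent, and Smchd1, Setdb1 and Dnmt3b are known repressors of them.

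The Pcdha array spans chr18:36930184-37187661 (mm10), Pcdhb chr18:37264938-37524479 and Pcdhg chr18:37661793-37841873, all read on the plus strand. The variable promoters differed from other promoters in base composition. Start-site windows held a median of 21.4 CpG sites per kb in Pcdha, 14.2 in Pcdhb and 25.1 in Pcdhg, against 22.2 in the 18723 start-site windows of other autosomal protein-coding genes and 7.75 in all autosomal windows. Their GC content was 40.05%, 42.5% and 44.5%, below the 49% of the other start-site windows. The letters CGCT, searched on both strands between 250 bases before and 50 bases after each gene start, were found in 14 of 14 Pcdha, 21 of 22 Pcdhb and 21 of 22 Pcdhg promoters. Pcdhb22 and Pcdhga12 lacked them, and 67.4% of 21698 other promoters also held them. Several other annotated genes share these windows, among them 3 long predicted genes (Gm42416, Gm37013 and Gm37388) whose bodies run from Pcdha into Pcdhg.

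Library levels differed as a whole. The autosomal median was 11.3% at day 0, then 14, 21.2, 10.3 and 6.41% along the Nons course and 11.1, 20.2, 11.9 and 7.14% along the Smarcc1 course. Each value below is therefore also given as a relative level, the percent of a window or the median percent of a group divided by the autosomal median of the same library. The 2 libraries of day 7 had the lowest medians and the most windows at 0%, 2.38% of windows in Nons and 5.35% in the knockdown, so their relative levels rest on small percentages. Reads behind each window were not given, so the depth is unknown and no counting interval was computed.

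Start-site windows of all 3 arrays were more open than the autosomal median in all 9 libraries. In Pcdha their median was 14% at day 0, then 17.1, 29.4, 13.6 and 8.49% along the Nons course and 15.1, 28.1, 15.9 and 8.51% along the Smarcc1 course. The relative level was 1.31 ± 0.073 (SD, n = 9 libraries) in Pcdha, 1.30 ± 0.139 in Pcdhb and 1.41 ± 0.184 in Pcdhg. Each was tested by flipping the signs of the 9 library values, an exact permutation test taken as two-sided, and reached the smallest p this can give, 0.0039 (0.0059 after Benjamini-Hochberg adjustment over 6 values). The lowest Pcdha library stood at 1.19 and the lowest Pcdhb and Pcdhg libraries at 1.05 and 1.08, so no library of any array fell to the autosomal median. The libraries read the same windows, and the test asks only whether they share the sign.

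Outside the start sites the arrays parted. The 64 other windows of Pcdha had a relative level of 0.935 ± 0.101 and were above the autosomal median in 3 of 9 libraries (exact sign-flip permutation p = 0.090). The 50 other windows of Pcdhg stood at 1.12 ± 0.070, above it in 9 of 9 libraries (exact permutation p = 0.0039, adjusted 0.0059). The 33 other windows of Pcdhb stood at 1.11 ± 0.134, above in 7 of 9 libraries, and missed the threshold after adjustment (exact permutation p = 0.043, adjusted 0.052). The difference between arrays was not itself tested, and these other windows differed in composition. They held a median of 6.09 CpG sites per kb in Pcdha, 12.6 in Pcdhb and 11.8 in Pcdhg. Their median length was 3323.5, 2769 and 2333.5 bases in the same order, and their median share of repeats 27.4%, 18.9% and 24.4%. By CpG sites per kb, over the 3 arrays together, the 80 other windows with under 10 had a median relative level of 1.00. Autosomal windows of that range had 1.02. The 26 with 10 to 20 had 1.09 beside 1.06, and the 20 with 20 to 30 had 1.16 beside 1.19. The 21 with 30 or more had 1.21 beside 1.72. These ranges were not split by array, and the part of composition in these levels was not tested.

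**Figure D1:**
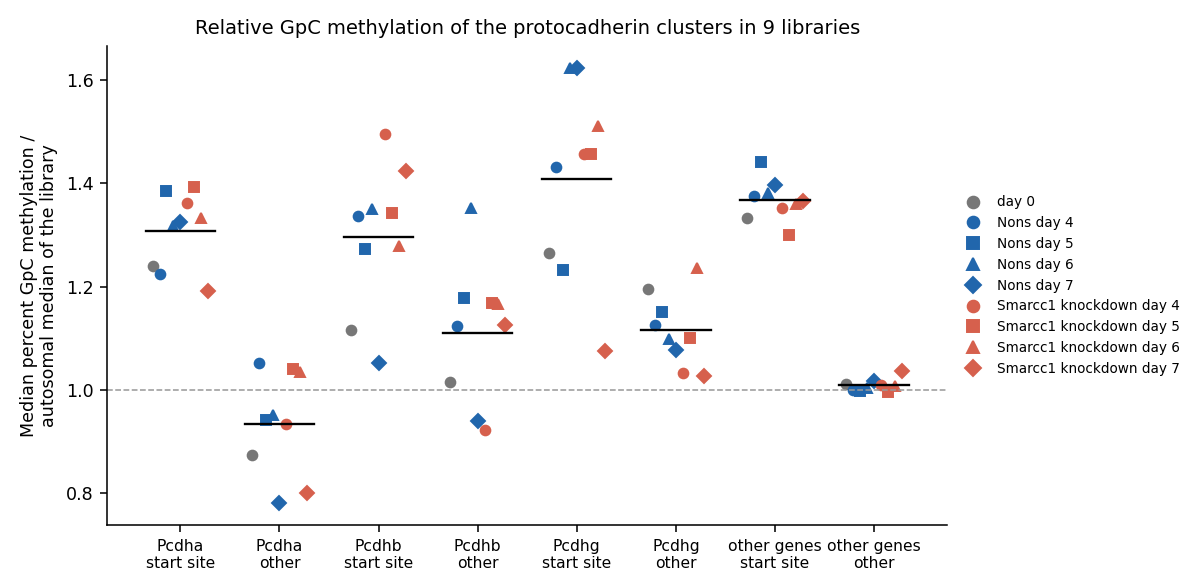
Relative GpC methylation (vertical axis, median percent of the group divided by the autosomal median of the library) of windows with and without a start site in each array, and of other autosomal protein-coding genes, with 1 point per library and a bar at the mean of 9 libraries. Start-site windows of all 3 arrays lie above the dashed line at 1 in every library, at means of 1.31, 1.30 and 1.41 beside 1.37 for other genes, and the vertical axis does not start at 0.

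The windows without a start site were then divided by what they carry. Those that overlap a variable coding exon stood at 0.998 ± 0.152 in Pcdha (19 windows), 1.2 ± 0.203 in Pcdhb (24 windows) and 1.15 ± 0.124 in Pcdhg (27 windows). Windows with no coding exon stood at 0.928 ± 0.116 in Pcdha, 0.966 ± 0.188 in Pcdhb and 1.17 ± 0.150 in Pcdhg. The constant exons that all transcripts of an array share were not among the open stretches, with 0.869 ± 0.246 over 3 windows of Pcdha and 0.906 ± 0.353 over 3 windows of Pcdhg. These values span the autosomal level within 1 SD, apart from those of Pcdhg windows outside the constant exons.

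Being open at the start site was not particular to these genes. Start-site windows of other protein-coding genes had a relative level of 1.37 ± 0.039 and were above 1 in 9 of 9 libraries. Against that reference, measured in the same library, the ratio was 0.957 ± 0.060 for Pcdha, 0.950 ± 0.110 for Pcdhb and 1.03 ± 0.138 for Pcdhg, with exact sign-flip permutation p of 0.070, 0.19 and 0.66 over 9 libraries. The step from start site to the rest of the array was also set against the same step in other genes. It was 0.05 larger on the log2 scale in Pcdha (SD 0.15, exact permutation p = 0.33). It was 0.21 smaller in Pcdhb, as a log2 difference of -0.21 (SD 0.22), in 8 of 9 libraries (exact permutation p = 0.031, adjusted 0.094). In Pcdhg it differed by -0.11 (SD 0.21, exact permutation p = 0.16).

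The comparison was repeated with each start-site window divided by the median of other start-site windows in its own range of CpG sites per kb. The median of these ratios was 0.956 ± 0.125 in Pcdha, 0.978 ± 0.097 in Pcdhb and 0.980 ± 0.121 in Pcdhg (SD, n = 9 libraries). It lay below 1 in 6, 4 and 3 of 9 libraries, and no array passed the test (exact sign-flip permutation p = 0.27, 0.45 and 0.66, each 0.66 after adjustment over 3 values). This reference was added after the data had been seen. By range, the 5 member start-site windows with under 10 CpG sites per kb had a median relative level of 1.33 beside 1.01 for other genes, and the 23 windows with 10 to 20 had 1.26 beside 1.24. The 20 windows with 20 to 30 sites per kb had 1.41 beside 1.62, and the 10 windows with 30 or more had 1.52 beside 1.89. Over other start-site windows the mean relative level and CpG density were correlated across windows at Spearman's rho 0.747, and over the 58 member windows at 0.394. These correlations run across windows that share libraries and base composition and are given as a description.

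**Figure D2:**
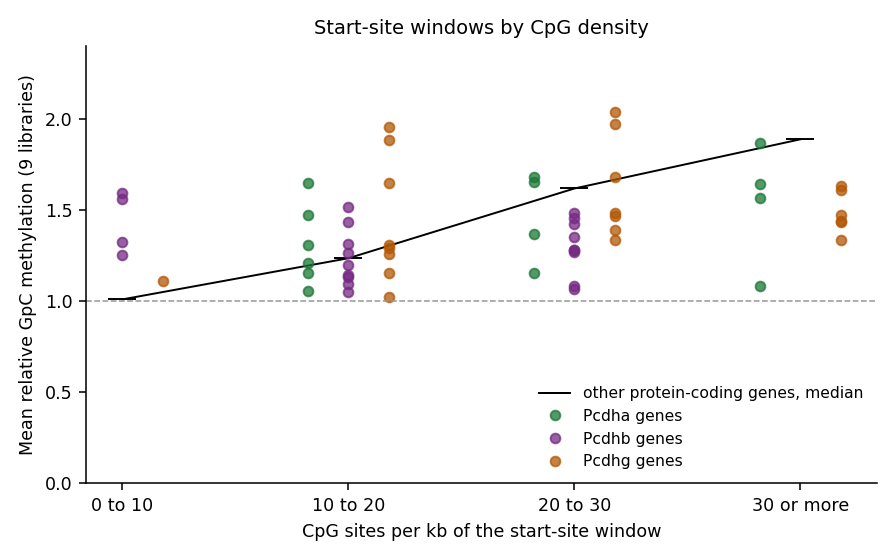
Mean relative level over 9 libraries (vertical axis) of each of the 58 start-site windows by CpG sites per kb of the window (horizontal axis, 4 ranges), with the median of other autosomal protein-coding start-site windows as a black line. Other genes rise from 1.01 to 1.89 across the ranges, while the member windows go from a median of 1.33 to 1.52. The last range has no upper bound, so CpG density is not matched within it.

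Taken window by window, the members held more high values than the genome. A mean relative level of 1.5 or more was reached by 27 of 205 member windows (13.2%), beside 4.73% of 786533 autosomal windows. Of the 58 start-site windows 17 reached it (29.3%), namely 6 of 14 in Pcdha, 3 of 22 in Pcdhb and 8 of 22 in Pcdhg, beside 46.8% of other protein-coding start-site windows. A level of 0.75 or less was seen in 8 of 205 member windows (3.90%), beside 5.67% of autosomal windows. It was seen in 0 of the 58 start-site windows, beside 2.74% of other protein-coding start-site windows. All 58 start-site windows had a mean above 1, and 57 lay above the median autosomal window. The share below that window was 1.72%, beside 20.4% of other start-site windows. Of the 58 windows 29 lay in the top 10% of autosomal windows (50%), beside 56.1% of other start-site windows.

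**Figure D3:**
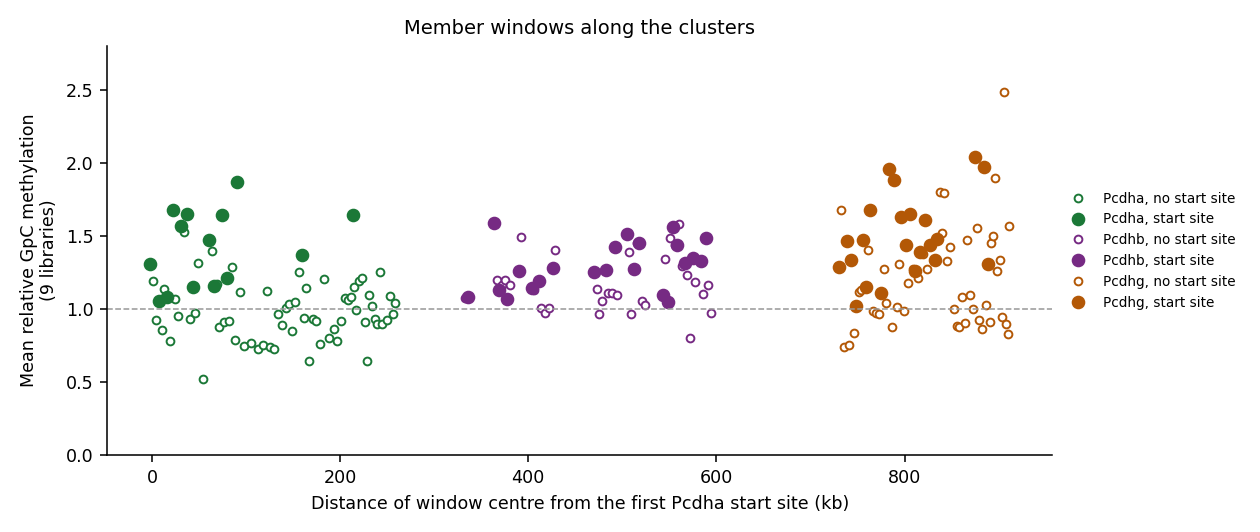
Mean relative level over 9 libraries (vertical axis) of the 205 windows along the arrays, as distance in kb of the window centre from the Pcdha start site that comes first (horizontal axis), with filled points for windows that hold a start site. Filled points lie above the dashed line at 1, and the highest window, at 2.49, is an open point at the far end of Pcdhg.

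The C-type genes had the highest median among the isoform groups of Pcdhg. The window of Pcdhgc3 (chr18:37804108-37806495) read 23.7% at day 0, then 33.8, 55.1, 5.41 and 12.5% along the Nons course and 24.5, 49.6, 24.4 and 14.6% along the Smarcc1 course. Of its libraries 8 lay between 1.95 and 2.60 times the autosomal median, and Nons at day 6 alone fell below it, at 0.52. Its mean relative level was 2.04 ± 0.609. The window of Pcdhgc4 (chr18:37813793-37815788) read 11.6% at day 0, then 30.3, 34.6, 26.6 and 20.8% along the Nons course and 13.7, 31.0, 17.2 and 20.5% along the Smarcc1 course. It was above the autosomal median in 9 of 9 libraries, from 1.03 at day 0 to 3.24 in Nons at day 7, with a mean of 1.97 ± 0.776. The window of Pcdhgc5 (chr18:37817583-37819713) was less open, at 4.55% at day 0, then 18.7, 24.1, 12.9 and 7.41% along the Nons course and 6.00, 27.9, 12.2 and 25.4% along the Smarcc1 course. Its mean was 1.31 ± 0.909, and day 0 and the day 4 knockdown lay below the autosomal median.

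The pair of C-type genes of Pcdha differed from each other in the libraries in which they were open. The window of Pcdhac1 (chr18:37088168-37090430) read 20.9% at day 0, then 16.7, 39.4, 13.6 and 3.67% along the Nons course and 19.8, 44.0, 10.1 and 5.00% along the Smarcc1 course. Its mean relative level was 1.37 ± 0.579, and the 3 libraries below 1 were both of day 7 and the day 6 knockdown. The window of Pcdhac2 (chr18:37142639-37144428), which held 53.1 CpG sites per kb, read 15.2% at day 0, then 21.2, 26.6, 4.08 and 16.4% along the Nons course and 30.2, 23.8, 16.9 and 17.1% along the Smarcc1 course. Its mean was 1.64 ± 0.761, and only Nons at day 6 lay below the autosomal median. By group, the median of the genes' mean relative levels was 1.97 for the 3 C-type genes of Pcdhg, 1.5 for the 2 of Pcdha, 1.47 for the 12 Pcdhga genes, 1.39 for the 12 alternate Pcdha genes, 1.33 for the 7 Pcdhgb genes and 1.28 for the 22 Pcdhb genes. Neighbouring groups in this order overlapped in their library medians, which ran from 1.03 to 2.87 for the Pcdhg C-type genes alone.

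Among the alternate Pcdha genes, Pcdha12, Pcdha4 and Pcdha6 had the highest mean relative levels. Pcdha12 read 20% at day 0, then 23.3, 26.6, 43.2 and 8.99% along the Nons course and 23.1, 24.5, 15.6 and 13.9% along the Smarcc1 course. Its mean of 1.87 ± 0.918 was raised by Nons at day 6, at 4.17, while its other libraries lay between 1.21 and 2.08. Pcdha4 (mean 1.68 ± 0.687) read from 8.79% in Nons at day 7 to 32.5% in Nons at day 5, and Pcdha6 (mean 1.65 ± 0.579) from 10.3% in the day 7 knockdown to 36.8% in the day 5 knockdown. The lowest means were those of Pcdha2 (1.05 ± 0.407), Pcdha3 (1.08 ± 0.369) and Pcdha7 (1.15 ± 0.360). Pcdha2 read 18% at day 0, then 13.6, 21.6, 8.70 and 1.83% along the Nons course and 15.7, 29.9, 9.23 and 7.81% along the Smarcc1 course, and was above the autosomal median in 5 of 9 libraries. The ranges of the high and low genes overlapped in relative level.

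Pcdhb genes stood closer together, from 1.05 to 1.59. The highest were Pcdhb2 (1.59 ± 0.837), Pcdhb17 (1.56 ± 0.498) and Pcdhb12 (1.52 ± 0.687). Pcdhb2 read 10.2% at day 0, then 8.91, 27.5, 32.5 and 9.64% along the Nons course and 7.32, 48.3, 21.3 and 14.3% along the Smarcc1 course. Day 0 and both libraries of day 4 lay below the autosomal median and all later libraries above it. The lowest were Pcdhb16 (1.05 ± 0.342), Pcdhb4 (1.07 ± 0.455) and Pcdhb1 (1.08 ± 0.548). Pcdhb16 was above the autosomal median in 5 libraries, Pcdhb4 in 4 and Pcdhb1 in 6. Of the 22 Pcdhb genes, 0 were above it in all 9 libraries, a count with no share of other start-site windows to set beside it.

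In Pcdhg, Pcdhga7 (1.96 ± 0.520) joined Pcdhgc3 and Pcdhgc4 at the top. It read 30.2% at day 0, then 15.9, 38.8, 18 and 14.2% along the Nons course and 25.4, 24.4, 27.7 and 15.5% along the Smarcc1 course, above the autosomal median in all 9 libraries. At the bottom were Pcdhgb1 (1.02 ± 0.434), Pcdhga6 (1.11 ± 0.528) and Pcdhgb2 (1.15 ± 0.401). Pcdhgb1 read 15.9% at day 0, then 18.8, 27.0, 7.63 and 5.83% along the Nons course and 6.03, 33.3, 12.0 and 2.38% along the Smarcc1 course. It was the gene whose window lay below the median autosomal window, at the 47.1 percentile.

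**Figure D4:**
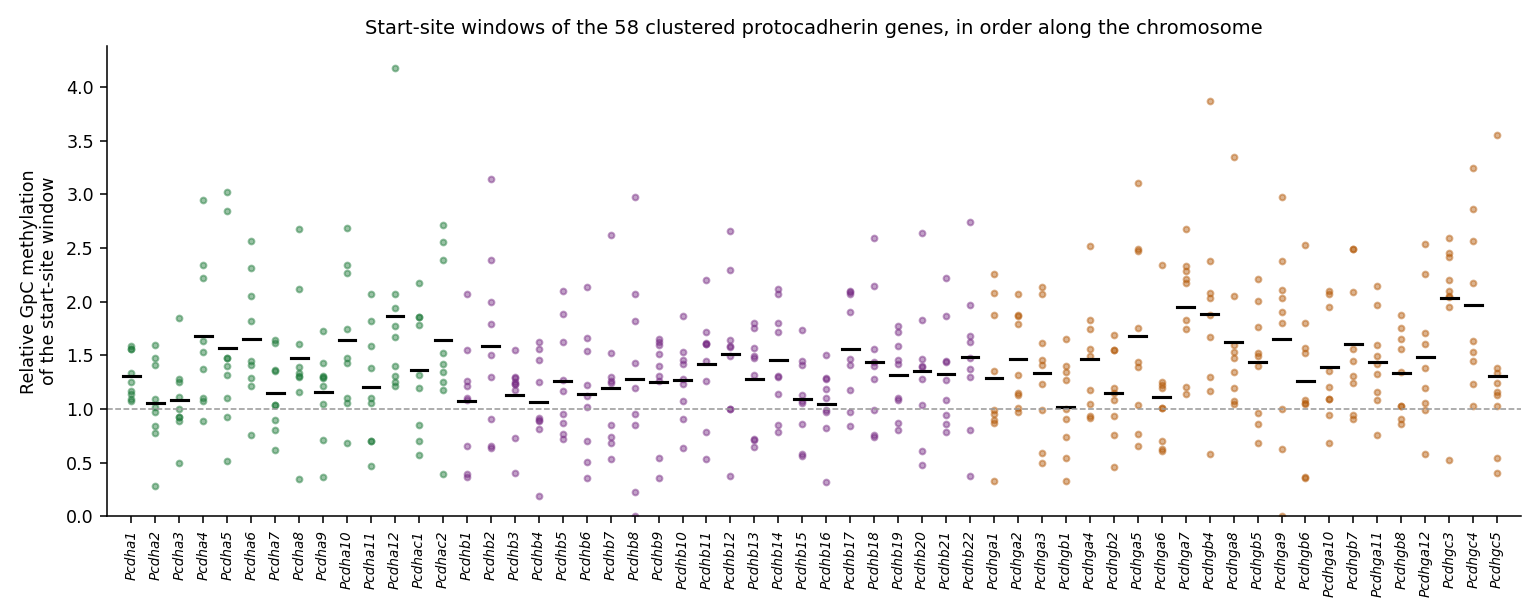
Relative GpC methylation (vertical axis) of the start-site window of each of the 58 genes in order along the chromosome (horizontal axis), with 1 point per library and a black bar at the mean of 9 libraries, green for Pcdha, purple for Pcdhb and orange for Pcdhg. The means run from 1.02 for Pcdhgb1 to 2.04 for Pcdhgc3, and the 9 points of most genes cross the dashed line at 1.

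The isoforms did not keep 1 order from library to library. Spearman's rho between libraries over the 58 start-site windows had a median of 0.023 over the 36 pairs of libraries and ran from -0.149 to 0.299. Over the start-site windows of other protein-coding genes the median was 0.315, with a range of 0.208 to 0.474, and over all 205 members 0.160. Over all autosomal windows it was 0.077, with a range of 0.053 to 0.129. With the depth unknown, noise in single windows and a change of order cannot be told apart. These correlations are descriptions across windows, not tests. By gene, 5 of 58 genes were above the autosomal median in all 9 libraries (Pcdha1, Pcdha12, Pcdhga7, Pcdhga8 and Pcdhgc4), and 3 genes were above it in 4 or fewer (Pcdha3, Pcdhb4 and Pcdhga1). No share over other start-site windows is given for these counts, so whether they are unusual is not known.

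Away from the start sites, the most open member window lay between the last constant exons of Pcdhg (chr18:37834831-37836845) and overlapped no coding exon of the array. It and the windows that follow were singled out after their values had been seen. It read 48.1% at day 0, then 8.04, 43.3, 35.9 and 24.8% along the Nons course and 8.57, 36, 19.3 and 28.6% along the Smarcc1 course. Its mean relative level was 2.49 ± 1.43, with both libraries of day 4 below the autosomal median and the other 7 above it. A neighbouring window just after the constant exon that comes first (chr18:37825534-37827550) had a mean of 1.90 ± 0.806 and was above the autosomal median in 8 of 9 libraries. They held 9.43 and 5.95 CpG sites per kb, beside a median of 7.75 in autosomal windows. Windows without a start site reached 1.5 in 10 of 147 cases (6.80%), beside 4.73% of autosomal windows, and 8 of these 10 lay in Pcdhg, with 1 each in Pcdha and Pcdhb.

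The most closed member window lay in Pcdha (chr18:36980753-36989199) over the unprocessed pseudogene Gm36858, and 84.7% of its bases were marked as repeats in the reference. It read 7.41% at day 0, then 13.1, 4.17, 5.56 and 0.0% along the Nons course and 1.89, 18.6, 6.76 and 5.13% along the Smarcc1 course. It lay below the autosomal median in all 9 libraries, with a mean relative level of 0.523 ± 0.335. Of the 8 low member windows 7 lay in Pcdha, all among its 64 windows without a start site (10.9%, beside 5.67% of autosomal windows). Fewer member windows stood this low after quantile normalization, as given below. The median share of repeats was 24.8% in autosomal windows and 27.4% in Pcdha windows without a start site, where the upper quartile was 50.2%. The part of repeats in these low values was not tested.

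The knockdown of Smarcc1 was compared with Nons on the same day, to ask whether depletion of this BAF subunit altered accessibility. Averaged over the 4 days, the relative level of start-site windows differed by 0.01 on the log2 scale in Pcdha, 0.15 in Pcdhb and -0.11 in Pcdhg, and that of other windows by 0.03, -0.06 and -0.02. The SD over the 4 day pairs was 0.12 to 0.35 for start-site windows, and was larger than each mean. Exact sign-flip permutation p ran from 0.375 to 0.75, and all 6 were 0.75 after adjustment. With 4 pairs this test cannot go below 0.125, and the days are a time course rather than replicates.

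The sign of the difference changed with the day in each group. For Pcdhg start-site windows the log2 difference was 0.03, 0.24, -0.10 and -0.59 at days 4 to 7, and for Pcdhb 0.16, 0.08, -0.08 and 0.44. At day 7 the Pcdhg median was 10.4% in Nons and 7.68% in the knockdown, while that of Pcdhb was 6.75% and 10.2%. For Pcdha start-site windows the values were 0.15, 0.01, 0.02 and -0.15.

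**Figure D5:**
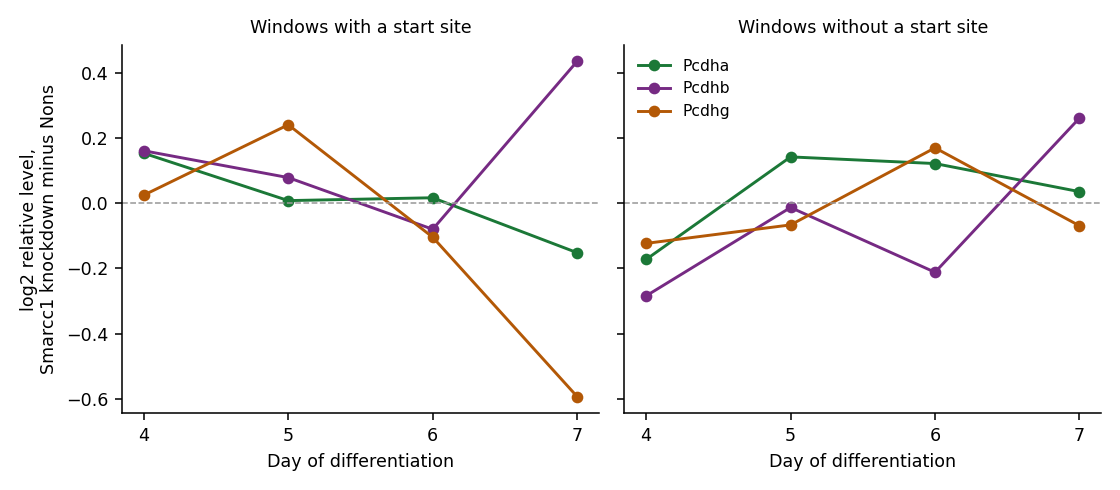
Difference in log2 relative level between the Smarcc1 knockdown and Nons (vertical axis) by day (horizontal axis) for windows with a start site (left) and without (right), with 1 pair of libraries per point. Lines of each array cross 0 between days, and the widest values are those of day 7, 0.44 for Pcdhb and -0.59 for Pcdhg start-site windows.

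Single windows were counted against the share of all 829493 windows that differed as much on the same day. A relative level higher by 1 or more in the knockdown was found in 12, 4, 16 and 25 of 205 members in the order of the days, beside 4.75%, 2.72%, 7.21% and 13.9% of all windows. A level lower by 1 or more was found in 7, 8, 23 and 12 members, beside 3.52%, 3.45%, 8.57% and 12.6% of all windows. As shares of the 205 members the counts of higher windows were 5.85%, 1.95%, 7.80% and 12.2%, and those of lower windows 3.41%, 3.90%, 11.2% and 5.85%. Among the 58 start-site windows the higher share was 13.8%, 1.72%, 15.5% and 15.5%, beside 9.97%, 2.69%, 13.9% and 21.3% of other protein-coding start-site windows. Their lower share was 1.72%, 1.72%, 15.5% and 6.90%, beside 8.86%, 6.16%, 17.1% and 21.3%. The same sign on all 4 days was seen in 12 members that were higher (5.85%, beside 6.3% of all windows) and 14 that were lower (6.83%, beside 6.36%). With the limma fit over all windows and day as a block, 0 members passed an adjusted p of 0.05 and 0.0% of all windows did. At an unadjusted p under 0.05, 3 members were higher and 4 lower, beside 2.22% and 2.42% of all windows.

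Where a start-site window kept 1 sign over the 4 days, Pcdhb8 had the widest positive mean difference in relative level, 0.83. It read 0.0% at day 0, then 25.4, 25.5, 2.33 and 5.48% along the Nons course and 23.1, 28.9, 11.4 and 21.3% along the Smarcc1 course. The difference was mostly that of day 7, at 2.12, and the limma estimate of 6.86 percentage points had an adjusted p of 0.963. Pcdhb4 (0.59) and Pcdhga12 (0.42) were next. Pcdhb4 read 12.8, 26.5, 1.96 and 5.21% along the Nons course and 17.3, 32.8, 17.4 and 6.41% along the Smarcc1 course.

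In the other direction stood Pcdhga6 (-0.77), Pcdhgc4 (-0.63) and Pcdhb1 (-0.62). Pcdhga6 read 11.4% at day 0, then 17.1, 25.3, 24.2 and 8.02% along the Nons course and 11.3, 12.7, 7.26 and 5.00% along the Smarcc1 course. Its estimate by limma was -9.22 percentage points (adjusted p = 0.963). For Pcdhgc4 the estimate was -7.07 and for Pcdhb1 -7.12 percentage points, each with an adjusted p of 0.963. None of these differences held against the number of windows tested.

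The later days (6 and 7) were set against the earlier ones (4 and 5), with both arms together, to follow accessibility over differentiation. The mean log2 relative level of start-site windows differed by -0.05 in Pcdha, -0.10 in Pcdhb and 0.05 in Pcdhg, and that of other windows by -0.16, 0.06 and 0.01. Exact two-sided permutation p, for 4 libraries against 4, ran from 0.26 to 0.97, where the smallest possible is 0.029. No library at day 0 entered this test. At day 0 the relative levels were 1.24, 1.12 and 1.26 for the start-site windows of Pcdha, Pcdhb and Pcdhg, which is inside the range of the later libraries.

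By window, 0 members passed an adjusted p of 0.05 for late against early days in limma, beside 0.000121% of all windows, and their smallest adjusted p was 0.688. At an unadjusted p under 0.05, 0 members were higher and 11 lower at the late days, beside 2.55% and 3.01% of all windows. Of the 11 windows 6 held a start site (10.3% of 58), beside 10.9% of other protein-coding start-site windows. This fit is in percentage points above the autosomal median, and a window at a fixed multiple of that median stands fewer points above it where the median is low. On values divided by the autosomal median, 8 members were higher (3.90%, beside 3.17% of all windows) and 6 lower (2.93%, beside 2.04%).

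The genes with the widest falls in relative level at the late days were Pcdhga9 (-0.90), Pcdhac1 (-0.89) and Pcdhgc3 (-0.78), and those with the widest rises were Pcdhgc4 (0.89), Pcdhb2 (0.86) and Pcdha6 (0.82). For Pcdhgc3 the late libraries included Nons at day 6, its only library below the autosomal median. Pcdhga9 read 23.8% at day 0, then 41.6, 21.3, 19.7 and 13.0% along the Nons course and 26.4, 36.4, 7.48 and 0.0% along the Smarcc1 course. In Pcdhac1 the 4 early libraries, at 1.19 to 2.18 times the autosomal median, overlapped the late ones at 0.57 to 1.32 through Nons at days 4 and 6. In Pcdha6 the late libraries read 26.5, 14.8, 24.4 and 10.3%, or 1.45 to 2.56 times the autosomal median, beside 0.75 to 1.82 at the early days. Adjusted p in limma was 0.891 for Pcdhga9 and Pcdhac1, 0.830 for Pcdhgc3, 0.975 for Pcdhgc4, 0.952 for Pcdhb2 and 0.920 for Pcdha6. The smallest unadjusted p among members, 0.00015, was that of a Pcdha window over a variable exon with no start site (chr18:36962357-36965829). That window read 31.6, 45, 9.30 and 3.51% along the Nons course and 19.1, 50, 14.7 and 6.48% along the Smarcc1 course. Its early and late libraries did not overlap in percent or in relative level, and its adjusted p was 0.688.

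Related genes outside the arrays were read at their start sites in the same way. Of 12 non-clustered protocadherins, which are separate genes outside the arrays, 11 had a start-site window. Their median of mean relative levels was 1.70, with 9 at 1.5 or more. Of these genes, Pcdh1 and Pcdh12 lie on chromosome 18 as the arrays do, and Pcdh11x and Pcdh19 on the X chromosome. The 6 classical cadherins, the adhesion proteins that give the family its name, had a median of 1.92, with 4 at 1.5 or more. Of 14 genes for CTCF, cohesin and other regulators of the arrays 11 had such a window, with a median of 1.72 and 8 at 1.5 or more. Ctcf, Smc1a and Nipbl had none, so the start site of Ctcf itself was not read. Beside these, the median over the 58 clustered genes was 1.36. Over other protein-coding start-site windows it was 1.45, with 46.8% at 1.5 or more. The lists were not matched to the arrays for CpG density. In the limma fit for the knockdown 3 of 11, 0 of 6 and 3 of 11 windows of these lists had an unadjusted p under 0.05, all of them lower in the knockdown. Over other protein-coding start-site windows 3.61% were higher and 7.19% lower at that threshold, and over all windows 2.22% and 2.42%. For late against early days 2 non-clustered protocadherins, 2 classical cadherins and 3 regulators were lower and 1 non-clustered protocadherin was higher. Among other start-site windows 10.9% were lower and 2.28% higher. Those other start-site windows were all autosomal. The X-linked Pcdh19 was among the lower windows in both comparisons, and the X-linked Pcdh11x was the window higher at the late days. After adjustment 0 passed in every list. Of the repressors of the arrays, Smchd1 (1.91 ± 0.698) was above the autosomal median at its start site in 9 of 9 libraries and Setdb1 (1.72 ± 0.931) in 7, with 0.0% in Nons at day 6. Dnmt3b (1.57 ± 1.33) was above it in 6 of 9 libraries and read 0.0% in Nons at day 6 and in the day 7 knockdown.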

How the data were processed

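NOMe-seq libraries of 9 conditions and days were analysed, 1 library each, grouped by their titles. After trim_galore, the authors mapped reads with bismark to an mm10 genome masked at sites that differ between FVB and CAST, and took GpC methylation from bismark_methylation_extractor and coverage2cytosine. Each deposited value is the percent of methylated GpC calls in a window of 200 read positions, which the authors computed in Seqmonk from both alleles together. Of 833294 deposited windows, 829493 had a value in all 9 libraries and were used. Library medians differed widely, so values were not taken as normalized between libraries. The arrays are tandem copies of similar genes, and reads that match several copies could be lost or misplaced.

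Genes came from GENCODE M21, and CpG, GC and repeat shares from the GRCm38 sequence. That annotation gives the symbol Pcdha11 to a pair of genes, and the one that starts at 37005203 is called Pcdha10 here, as in RefSeq. No sequence is printed. Group medians were divided by the autosomal median and tested on the log2 scale with exact sign-flip or exact permutation tests over libraries. Windows were tested with limma 3.58.1 in R 4.3.3 on percent values centred on the autosomal median, over all windows, with Benjamini-Hochberg adjustment at 0.05. The limma fit was tried on simulated windows, and the permutation tests on small inputs with known answers. The named genes were the C-type genes, the 3 highest and 3 lowest start-site windows of each array, the 3 widest knockdown differences in each direction with the same sign on all 4 days, and the 3 widest late differences in each direction. Members, lists and tests were chosen with earlier results of these data known. Alternatives covered the summary over windows, the scaling, the reference, the window rule and each library left out.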

Additional observations from a re-analysis of the deposited data

Results flagged for a closer look

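In each array the knockdown and Nons libraries stood in opposite order on different days. The spread between the days concerned, as the difference of log2 differences in relative level, was 0.31 between days 4 and 7 for the start-site windows of Pcdha and 0.31 between days 5 and 4 for its other windows. It was 0.52 between days 7 and 6 for the start-site windows of Pcdhb and 0.55 between days 7 and 4 for its other windows. For Pcdhg it was 0.83 between days 5 and 7 for start-site windows and 0.29 between days 6 and 4 for the others. With 1 pair of libraries a day, none of these differences between days was tested.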

How the results depend on the processing

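The relative levels of the start-site windows of the 3 arrays and of the other windows of Pcdhg kept their direction and their side of the threshold under every setting tried but 2, left-out libraries included. These 2 were references added after seeing the data, and they changed the values at start sites. Against all other promoters the log2 level was -0.065 for Pcdha, -0.084 for Pcdhb and 0.031 for Pcdhg, and with each window against promoters of its own CpG range -0.075, -0.039 and -0.040. By the mean over windows, the other windows of Pcdha stood at -0.13 (exact permutation p = 0.031) and the start-site excess of Pcdhg at -0.20 (exact permutation p = 0.0078). The level of the other Pcdhb windows ran from 0.105 to 0.174 with a library left out, and lost its unadjusted call without Nons at days 4, 5 or 6 or the knockdown at days 5, 6 or 7. The start-site excess of Pcdhb ran from -0.273 to -0.181, and lost it without day 0, Nons at days 5, 6 or 7, or the knockdown at day 6.

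Signs of the knockdown difference followed single days. With a day left out it ran from -0.042 to 0.059 for Pcdha start sites, -0.0050 to 0.100 for other Pcdha windows, -0.170 to 0.012 for other Pcdhb windows, -0.224 to 0.054 for Pcdhg start sites and -0.086 to 0.012 for other Pcdhg windows. Without windows at 0 or 100% it was -5.35e-05 for Pcdha start sites and 0.0075 for other Pcdhg windows. For late against early days, Pcdhb start-site windows passed the unadjusted threshold after quantile normalization (-0.22, exact permutation p = 0.029) and in percentage points (-3.15, exact permutation p = 0.029). In points the other windows read -0.481 in Pcdhb and -0.709 in Pcdhg. Pcdhg start sites read -0.015 by the mean, -0.091 after quantile normalization, -0.051 by window centres and -2.04 points. Other Pcdhg windows read -0.032 after quantile normalization and -0.0039 against windows of like GpC density. With a library left out, late against early ran from -0.027 to 0.148 for other Pcdhb windows, -0.046 to 0.043 for other Pcdhg windows and -0.010 to 0.188 for Pcdhg start sites, the last without the knockdown at day 7 (exact permutation p = 0.029). These 3 calls used permutations across both arms. With libraries permuted within each arm all 3 gave p = 0.056, the smallest that exact permutation can give, so none could pass with the arm kept.

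Of limma counts at an unadjusted p under 0.05, members higher at late days were 2 after quantile normalization (beside 2.59% of all windows) and 8 on divided values (3.17%), and members lower were 72 of 205 without centring (35.1%, beside 26.2% of all windows) and 6 on divided values (2.04%). Low member windows were 4 after quantile normalization, with no share of autosomal windows at that setting to set beside the count. At a threshold of 0.5 the single-day counts of higher members were 34, 39, 50 and 57, beside 18.9%, 16.2%, 22.7% and 28.4% of all windows. Lower members were 46, 30, 55 and 42, beside 17.7%, 17.1%, 23.6% and 28.0%. The cause of these changes was not tested. Depth was not given, so its limit could not be set.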

Other observations

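Windows between and beside the arrays were read in the same way. The 20 windows between Pcdha and Pcdhb had a median of mean relative levels of 1.05 and the 23 between Pcdhb genes 0.988, with 0 at 1.5 or more in either. Of the 36 windows between Pcdhb and Pcdhg, 3 reached 1.5, a pair at Taf7, a subunit of the general transcription factor TFIID, and 1 at the start of the long non-coding RNA gene 3222401L13Rik.

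In the 200 kb after Pcdhg 11 of 81 windows reached 1.5 (13.6%, beside 4.73% of autosomal windows and 13.2% of member windows), 7 of them over Diaph1, a formin that assembles actin filaments. In the 200 kb before Pcdha 9 of 68 did (13.2%), among them the start sites of Hars and Hars2, which encode histidyl-tRNA synthetases, and of Ndufa2, a subunit of mitochondrial complex I. The median there was 0.910, and 16 windows stood at 0.75 or less.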
